A study of Homo sapiens with 5 samples.

Results

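The clustered protocadherins were taken by name: every gene symbol beginning PCDHA, PCDHB or PCDHG followed by a letter or a number, with pseudogene symbols left out. This gave 53 of the 26364 symbols in the data, made up of 15 alpha, 16 beta and 22 gamma genes, and left out 4 pseudogenes. The cells were SH-SY5Y, an established line from a human neuroblastoma, and gave 5 libraries with 1 library in each group. The first group had an siRNA against STAU1 (siSTAU1), the next an siRNA against UPF1 (siUPF1) and their control a control siRNA (siControl). The other groups carry only the labels Differentiation and Nondifferentiation, and the media labels of both list 50 uM retinoic acid, an agent used to push these cells towards a neuron-like state. All 5 groups share 10% serum and 1% antibiotics. STAU1 is a binding protein of double-stranded RNA, UPF1 a helicase needed for nonsense-mediated decay, and the series asks how the loss of each compares with differentiation.

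Protocadherins are cell-surface adhesion proteins of the cadherin superfamily. The clustered genes lie side by side on human chromosome 5, and each neuron is known to transcribe its own small set of them, chosen largely at random promoter by promoter with the help of CTCF, cohesin and DNA methylation. Like isoforms bind each other across cells, and in mouse neurons this gives the recognition by which branches of 1 cell avoid each other. Alpha and gamma genes each have a variable exon with its own promoter, spliced to constant exons that all members of the cluster share. Beta genes are single exons with no constant part. The C-type members, PCDHAC1, PCDHAC2, PCDHGC3, PCDHGC4 and PCDHGC5, are known to be transcribed in most neurons rather than by random choice.

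The shared ends of the alpha and gamma transcripts decide what the libraries could see, since the kit reads the 3′ ends of polyadenylated RNA. In the GENCODE 29 transcripts the coding stretch from the first constant exon on was 456 bases long in alpha genes and identical in 15 of 15. In gamma genes it was 372 bases long and identical in 22 of 22. The junctions below, from the GENCODE 29 transcripts, are shown because they mark where a member's own sequence stops: 20 bases of the variable exon are in lower case, and the 20 bases of constant exon that follow are in capitals.
PCDHA1: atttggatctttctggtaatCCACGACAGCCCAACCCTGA
PCDHA12: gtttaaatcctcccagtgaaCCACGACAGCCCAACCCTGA
PCDHAC2: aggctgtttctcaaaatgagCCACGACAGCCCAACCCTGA
PCDHGA11: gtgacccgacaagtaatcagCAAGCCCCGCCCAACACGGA
PCDHGB7: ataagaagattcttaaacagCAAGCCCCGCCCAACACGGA
PCDHGC3: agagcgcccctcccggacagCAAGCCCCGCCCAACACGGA
A read from the end of a transcript with the constant exons lies beyond this point and names the cluster, not the member. Each of the 37 alpha and gamma genes also has at least 1 GENCODE 29 transcript without the constant exons, whose end is the member's own. The beta genes differ in this respect. Of all windows of 50 bases in the last 500 bases of a beta transcript, 0% were shared with another beta gene for 15 members, and 7.1% were shared for PCDHB8, with PCDHB2. Over the whole transcript the share was 0% for PCDHB1 and between 9.4% (PCDHB7) and 45.7% (PCDHB8) for the others. Pseudogenes were not compared.

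The values are the deposited log2 levels, which had been scaled to a common distribution, and differences are log2 folds of 1 library against another. Since no group had a second library, the differences lack any check by replicates and carry no p-value. Estimated totals lay between 15400000 and 18600000 reads in siSTAU1, siUPF1, siControl and Nondifferentiation, and reached 31700000 in Differentiation. Intervals are 95% intervals from the estimated reads and cover counting error alone. A gene counted as measured if at least 1 of its 2 log2 levels reached the median of all nonzero levels of that pair, 7.84 for both knockdown comparisons and 7.76 for Differentiation, and it was counted as higher or lower from 2-fold on. In bulk RNA, fewer cells of a type and less RNA per cell cannot be told apart.

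The targeted genes followed their labels. STAU1 had a log2 level of 11.34 in siSTAU1, against 12.87 in siControl, a log2 fold of -1.52. UPF1 had a log2 level of 9.20 in siUPF1, against 10.74 in siControl, a log2 fold of -1.53. In the differentiation pair the log2 folds were -0.01 for STAU1 and 0.07 for UPF1. The 13 noradrenergic neuroblastoma markers were all detected in every library, and their summed linear level was 45033.2 in Differentiation, between 61018.8 and 68267.0 elsewhere. The glial markers summed to 138.4 or less in every library, with SOX10 listed at 0 in all. The 11 mesenchymal markers summed to 109894.8 in Differentiation, against 51001.2 in Nondifferentiation, with FN1 carrying most of it. Their median log2 level went the other way, at 6.47 in Differentiation, against 8.13 in Nondifferentiation. COL3A1 and COL1A1 were higher in Differentiation along with FN1, while TAGLN, COL1A2, ACTA2, TWIST1 and CD44 were lower. The 11 epithelial and luminal markers had 0 members listed at 0 in siSTAU1 and in Differentiation, against 1 in siUPF1, 4 in siControl and 5 in Nondifferentiation. Their summed level was 1676.4 in siSTAU1 and 653.4 in siUPF1, against 785.2 in siControl, and 2466.8 in Differentiation, against 718.2 in Nondifferentiation. MUC1, at a log2 level of 11.01 in Differentiation and 8.71 in Nondifferentiation, carried most of the sum in both. In siUPF1 the lower sum went with MUC1, at 7.51 against 8.71 in siControl, while other members were higher. KRT8 had 7.53 in siSTAU1 and 4.23 in siUPF1, against 2.49 in siControl, and KRT18 had 7.56 and 4.74, against 2.49. DSCAM-AS1 had 8.09 and 5.29, against 2.49, and ESR1 had 5.71 and 4.74 and was listed at 0 in siControl. EPCAM had a log2 fold of -0.22 (-2.65 to 2.20) in siSTAU1 and too few reads for a fold in siUPF1. GREB1 had -0.10 (-0.36 to 0.15) in siUPF1. Both of these folds lay within counting error. The 6 blood markers summed to 266.2 in siSTAU1 and 97.0 in siUPF1, against 101.0 in siControl. Their sum was 277.4 in Differentiation, against 126.4 in Nondifferentiation. PTPRC was listed at 0 in all libraries. HBB had a log2 level of 7.76 in siSTAU1 and 6.31 in siUPF1, against 5.92 in siControl. In the differentiation pair HBB had 7.82 in Differentiation, against 6.75 in Nondifferentiation. The part of these other cell type markers in the protocadherin values was not tested.

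**Figure D1:**
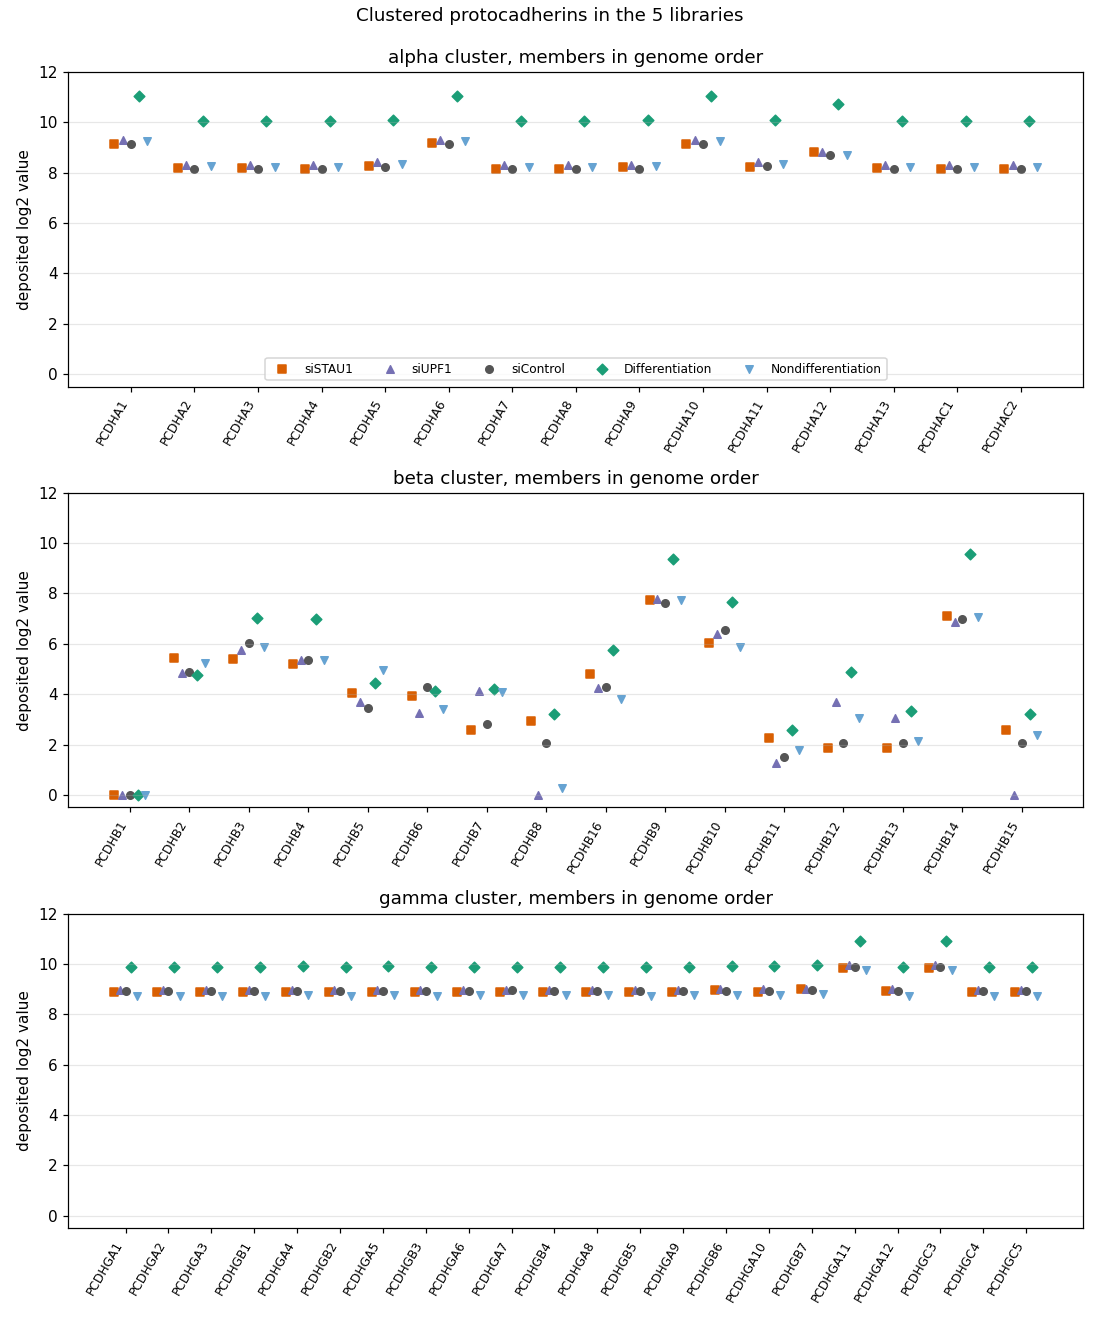
Deposited log2 levels (vertical axis) of the alpha, beta and gamma members (horizontal axis, in genome order) in the 5 libraries, 1 point per member and library. Most alpha and gamma members lie on near-flat lines, as rows that share reads would, with Differentiation above the other 4 libraries. PCDHA1, PCDHA6, PCDHA10, PCDHA12, PCDHGA11 and PCDHGC3 stand above these lines. Beta members range from listed at 0 to 9.55.

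The rows of the alpha and gamma genes behaved as repeats of 1 measurement per cluster. In Differentiation 11 of 15 alpha members and 20 of 22 gamma members lay within 12% of the lowest member of their cluster on the linear scale. The same numbers held in the other 4 libraries. The lowest member is therefore called the shared level of the cluster, and what a member had above it is called its excess. PCDHA1, PCDHA6, PCDHA10, PCDHGA11 and PCDHGC3 stood at about 2 times the shared level in all 5 libraries, with ratios between 1.96 and 2.06. Each of these 5 genes has 3 transcripts in RefSeq, whereas 29 of the other 32 alpha and gamma genes have 2 and the other 3 have 3. Whether reads were counted once per transcript was not tested. That the rows share reads is an inference from their near-equal values and identical constant exons, since the counting tool is not named. On that reading, a statement about 15 alpha or 22 gamma rows is a statement about 1 quantity each.

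Differentiation had higher levels of all 3 clusters than Nondifferentiation. Of the 53 members 39 were measured, 39 were higher by at least 2-fold and 0 were lower. Over all 9064 measured genes 10.4% were higher and 10.9% were lower. The median log2 fold was 1.80 over the alpha members and 1.15 over the gamma members, beside 0.02 over all measured genes. Counting the alpha and gamma rows as 1 measurement each leaves 4 higher measurements: the alpha shared level, the gamma shared level, PCDHB9 and PCDHB14. The alpha and gamma rows also passed the floor in Nondifferentiation. PCDHB9 and PCDHB14 passed it through Differentiation alone, so their count carries no weight beside the background.

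The alpha cluster had a shared log2 level of 10.03 in Differentiation, against 8.22 in Nondifferentiation. The knockdown libraries had 8.16 (siSTAU1) and 8.30 (siUPF1), against 8.13 in siControl. Differentiation was thus the high library, and the other 4 lay within a narrow band. The log2 fold of the shared level was 1.81 (1.63 to 2.0) in Differentiation against Nondifferentiation, which is 3.51-fold, from an estimated 1431 reads against 288. Over the 15 alpha rows the log2 folds ran between 1.74 and 2.03. With the shared reads, PCDHA1, the first of the variable exons, had 1.79. The C-type members PCDHAC1 and PCDHAC2, which close the cluster, had 1.80 and 1.81.

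Besides PCDHA1, PCDHA6 and PCDHA10 at about 2 times the shared level, with excesses of 1076.6, 1062.4 and 1080.8 linear units in Differentiation, PCDHA12 was the alpha member farthest above that level. It had a log2 level of 10.72 in Differentiation, against 8.69 in Nondifferentiation, and 8.81 in siSTAU1 and 8.81 in siUPF1, against 8.71 in siControl. Its excess over the shared level was 636.8 linear units in Differentiation, against 113.6 in Nondifferentiation, a log2 fold of 2.49. The excess amounted to 60.8% of the shared level in Differentiation and 38.1% in Nondifferentiation. In the knockdown libraries its excess was 161.4 in siSTAU1 and 134.4 in siUPF1, against 137.0 in siControl, for log2 folds of 0.24 and -0.03. The excess of PCDHA12 was thus present in every library and was highest in Differentiation. PCDHA5 and PCDHA11 had small excesses, of 39.0 and 31.8 linear units in Differentiation, against 25.6 for each in Nondifferentiation. As a share of the shared level these were lower in Differentiation, at 3.7% for PCDHA5 and 3.0% for PCDHA11, against 8.6% for each in Nondifferentiation.

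**Figure D2:**
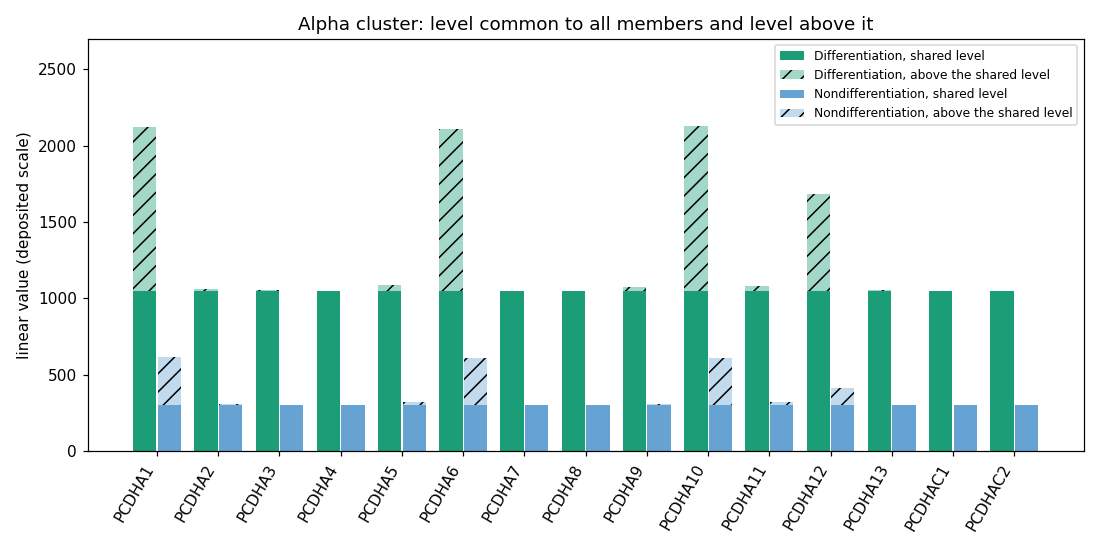
Linear level (vertical axis, deposited scale) of each alpha member in Differentiation and Nondifferentiation, with the shared level as the solid part of a bar and the excess as the hatched part. The shared level was 1047.6 in Differentiation, against 298.4 in Nondifferentiation; PCDHA1, PCDHA6 and PCDHA10 stand at about 2 times that level in both, and the PCDHA12 excess was 636.8 in Differentiation, against 113.6 in Nondifferentiation.

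The gamma cluster had a shared log2 level of 9.89 in Differentiation, against 8.74 in Nondifferentiation. The knockdown libraries had 8.87 (siSTAU1) and 8.96 (siUPF1), against 8.91 in siControl. The log2 fold in Differentiation against Nondifferentiation was 1.15 (0.99 to 1.31), which is 2.22-fold. The interval of the gamma fold ended below that of the alpha fold, so the clusters differed in size of change beyond counting error, while the spread between cultures is unknown. Against siControl in place of Nondifferentiation the log2 fold of the gamma shared level was 0.99, just short of 2-fold, and the gamma members then dropped out of most of the count. The 22 gamma rows had log2 folds between 1.12 and 1.17. PCDHGA1, the first of the gamma variable exons, had 1.15. Among the C-type genes PCDHGC3 had 1.17, PCDHGC4, which in mouse is known for the survival of interneurons, had 1.15, and PCDHGC5 had 1.15. Apart from PCDHGA11 and PCDHGC3 at about 2 times the shared level, the gamma members had small excesses. PCDHGB7 had the highest of these in Differentiation, with an excess of 31.8 linear units in Differentiation, against 22.8 in Nondifferentiation. Its excess was 37.4 in siSTAU1 and 10.4 in siUPF1, against 18.6 in siControl. The log2 fold of the excess in siSTAU1 was 1.01, from an estimated 33 reads against 16, and has no interval. The whole PCDHGB7 row had a log2 fold of 0.02 (-0.17 to 0.22) there. Excesses of other gamma rows moved by similar read numbers in either direction. PCDHGB6 had an estimated 22 reads of excess in siSTAU1, against 6 in siControl, and PCDHGA7 had 0 against 16.

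The beta genes are the members whose reads can be told apart. Their summed log2 level was 11.01 in Differentiation, against 9.32 in Nondifferentiation, and 9.31 in siSTAU1 and 9.29 in siUPF1, against 9.30 in siControl. The log2 fold in Differentiation was 1.70 (1.57 to 1.83), which is 3.24-fold. Of the 16 beta genes 7 reached a log2 level of 5 in at least 1 library, and 9 did not in any. PCDHB9 and PCDHB14 together carried 67.9% of the summed linear beta level in Differentiation, against 54.5% in Nondifferentiation. Without them the log2 fold of the sum was 1.19 (1.00 to 1.39).

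PCDHB14 had the largest log2 fold of the 7. Its log2 level was 9.55 in Differentiation, against 7.06 in Nondifferentiation, and 7.12 in siSTAU1 and 6.86 in siUPF1, against 6.99 in siControl. Its log2 fold in Differentiation was 2.49 (2.22 to 2.77), from an estimated 1023 reads against 127. PCDHB9 stood highest of the beta genes in the other 4 libraries. Its log2 level was 9.36 in Differentiation, against 7.74 in Nondifferentiation, and 7.76 in siSTAU1 and 7.79 in siUPF1, against 7.63 in siControl. The log2 fold in Differentiation was 1.61 (1.39 to 1.84). The order of this pair thus changed, with PCDHB14 above PCDHB9 in Differentiation and below it in Nondifferentiation.

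PCDHB10 lay just under the floor for measured genes in Differentiation. Its log2 level was 7.66 in Differentiation, against 5.89 in Nondifferentiation, and 6.02 in siSTAU1 and 6.40 in siUPF1, against 6.56 in siControl. Its log2 fold was 1.77 (1.36 to 2.21) in Differentiation and -0.54 (-1.07 to -0.02) in siSTAU1. The control libraries differed as well, with a log2 fold of 0.68 (0.16 to 1.20) in siControl against Nondifferentiation. PCDHB3 had a log2 level of 7.03 in Differentiation, against 5.86 in Nondifferentiation, and 5.41 in siSTAU1 and 5.77 in siUPF1, against 6.04 in siControl. Its log2 fold was 1.17 (0.73 to 1.63) in Differentiation and -0.63 (-1.30 to 0.02) in siSTAU1. Against siControl its log2 fold in Differentiation was 0.99, just short of 2-fold. PCDHB4 had a log2 level of 6.99 in Differentiation, against 5.34 in Nondifferentiation, and 5.21 in siSTAU1 and 5.34 in siUPF1, against 5.34 in siControl. Its log2 fold in Differentiation was 1.65 (1.14 to 2.19), and its 4 other libraries lay together.

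PCDHB16 and PCDHB2 complete the 7, at lower levels. PCDHB16 had a log2 level of 5.77 in Differentiation, against 3.81 in Nondifferentiation, and 4.81 in siSTAU1 and 4.23 in siUPF1, against 4.29 in siControl. The log2 fold in Differentiation was 1.96 (1.11 to 2.93), from an estimated 84 reads against 13. PCDHB2 was the exception in direction. Its log2 level was 4.77 in Differentiation, against 5.22 in Nondifferentiation, and 5.45 in siSTAU1 and 4.85 in siUPF1, against 4.88 in siControl. Its log2 fold of -0.46 (-1.13 to 0.22) in Differentiation lay within counting error. Of the 6 beta genes that reached a log2 level of 5 in Nondifferentiation, 5 were at least 2-fold higher in Differentiation and 0 were lower, where 9.4% of all genes chosen in the same way were higher and 13.5% were lower.

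The remaining 9 beta genes stayed below a log2 level of 5 in every library, with at most an estimated 48 reads, for PCDHB12 in Differentiation. PCDHB1 was listed at 0 in all 5 libraries. PCDHB5 had a log2 fold of -0.49 (-1.24 to 0.26) in Differentiation, PCDHB6 had 0.72 (-0.36 to 1.91) and PCDHB7 had 0.13 (-0.78 to 1.09). These 3 intervals all include 0. Against siControl in place of Nondifferentiation the log2 folds were 1.00 for PCDHB5, -0.17 for PCDHB6 and 1.41 for PCDHB7, so the direction of PCDHB5 and PCDHB6 turned. The controls differed for PCDHB5, by -1.49 (-2.83 to -0.33) in siControl against Nondifferentiation. PCDHB12 had a log2 level of 4.88 in Differentiation, against 3.04 in Nondifferentiation, with a log2 fold of 1.84 (0.75 to 3.13). PCDHB13 had 1.18 (-0.43 to 3.21) and PCDHB15 had 0.85 (-0.66 to 2.66). PCDHB8 and PCDHB11 had 3 reads or fewer in Nondifferentiation, so no fold is given. PCDHB8 had a log2 level of 3.23 in Differentiation and PCDHB11 one of 2.58.

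**Figure D3:**
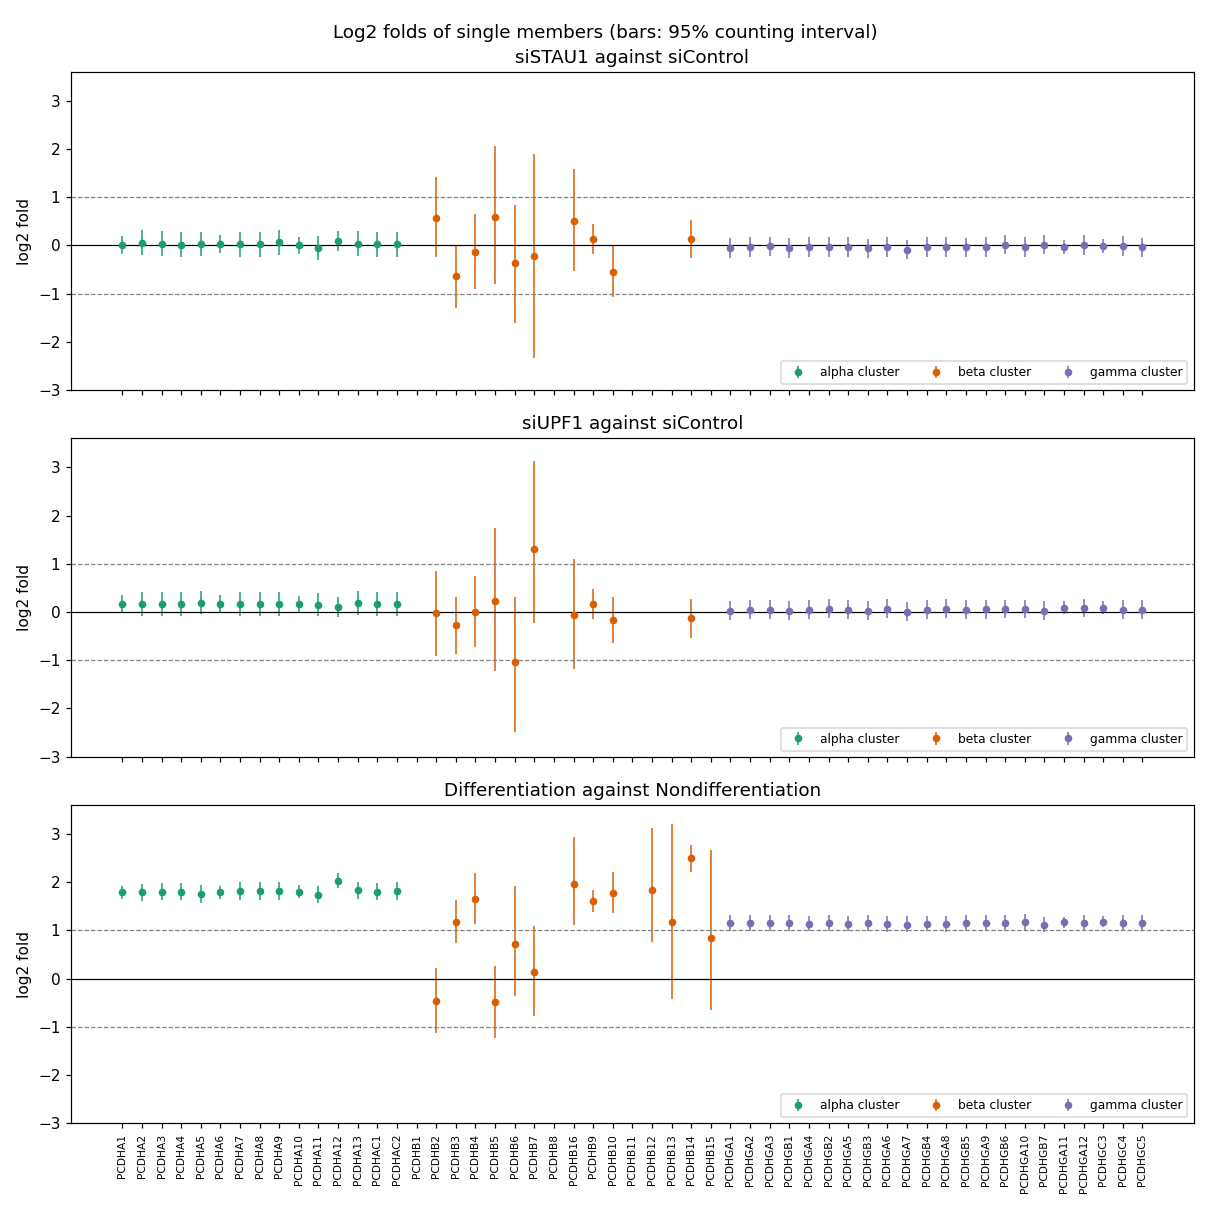
Log2 folds of the members with 95% counting intervals in siSTAU1 and siUPF1 against siControl and in Differentiation against Nondifferentiation. In Differentiation the alpha rows lie between 1.74 and 2.03 and the gamma rows between 1.12 and 1.17, while in the knockdown comparisons both sets lie near 0, and the intervals of alpha and gamma rows rest on shared reads.

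The knockdown libraries gave no 2-fold difference in any measured member. In siSTAU1 against siControl 37 of 53 members were measured, the 15 alpha and 22 gamma rows, and 0 were higher and 0 were lower. Over all 8454 measured genes 0.0946% were higher and 0.106% were lower. The member folds ran between -0.09 and 0.10 on the log2 scale, with a median of -0.02 beside 0.01 over all measured genes. The log2 fold in siSTAU1 was 0.03 (-0.23 to 0.29) for the alpha shared level, -0.03 (-0.23 to 0.17) for the gamma shared level and 0.01 (-0.17 to 0.19) for the beta sum. Counting error alone therefore leaves room for changes up to these bounds.

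In siUPF1 against siControl the same 37 rows were measured, and 0 were higher and 0 were lower. Over all 8475 measured genes 0.401% were higher and 0.142% were lower. The alpha rows had log2 folds between 0.11 and 0.19 and the gamma rows between 0.01 and 0.09, with a median of 0.07 over both, beside -0.01 over all measured genes. The log2 fold in siUPF1 was 0.17 (-0.08 to 0.42) for the alpha shared level, 0.05 (-0.14 to 0.24) for the gamma shared level and -0.01 (-0.18 to 0.16) for the beta sum. All 15 alpha rows had the same sign, and they were taken to share their reads. For comparison, siControl against Nondifferentiation had -0.09 (-0.34 to 0.17) for the alpha shared level and 0.16 (-0.04 to 0.36) for the gamma shared level. These control libraries differ in their siRNA and media labels, so the pair gives no spread between replicates. In that pair of controls 37 members were measured and 0 were higher and 0 were lower, where 0.222% of all measured genes were higher and 0.573% were lower. Both knockdown comparisons use the same siControl library.

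The promoters of the members that could be told apart were also read. RefSeq promoters of 300 bases, 250 before and 50 after each gene start, were matched for 47 of the 53 members in build GRCh38.p14. The 10-letter word most frequent among them, GGTGGCGCTG (CAGCGCCACC on the other strand, both strands searched), was in 12 of 14 beta promoters, 0 of 13 alpha promoters and 0 of 20 gamma promoters. It was in 0.297% of 27305 promoters of all genes. The word holds CGCT, the core of an element described for most clustered protocadherin promoters, and CGCT by itself was in 12 of 13 alpha, 14 of 14 beta and 20 of 20 gamma promoters and in 69.4% of all promoters. Because the word was picked for its frequency here, its counts are a description. TATAAA was in 3 of 13 alpha, 1 of 14 beta and 2 of 20 gamma promoters, and in 12% of all. The 100 bases before the gene start are shown for the 7 beta genes that reached a log2 level of 5, with the word, or its nearest match, in capitals.
PCDHB2, chr5:141094515-141094614, plus strand: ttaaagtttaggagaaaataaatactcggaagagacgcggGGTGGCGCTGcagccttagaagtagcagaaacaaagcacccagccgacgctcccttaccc
PCDHB3, chr5:141100373-141100472, plus strand: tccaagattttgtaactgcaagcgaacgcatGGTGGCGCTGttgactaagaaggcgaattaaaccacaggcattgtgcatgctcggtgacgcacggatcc
PCDHB4, chr5:141121718-141121817, plus strand: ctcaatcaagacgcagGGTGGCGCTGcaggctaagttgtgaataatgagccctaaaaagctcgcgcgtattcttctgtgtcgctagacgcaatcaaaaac
PCDHB16, chr5:141182287-141182386, plus strand: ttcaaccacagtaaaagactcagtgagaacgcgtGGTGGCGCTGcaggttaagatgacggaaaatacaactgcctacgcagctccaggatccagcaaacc
PCDHB9, chr5:141187061-141187160, plus strand: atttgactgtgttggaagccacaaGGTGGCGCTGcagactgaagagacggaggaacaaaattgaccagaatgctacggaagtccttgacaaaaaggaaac
PCDHB10, chr5:141192253-141192352, plus strand: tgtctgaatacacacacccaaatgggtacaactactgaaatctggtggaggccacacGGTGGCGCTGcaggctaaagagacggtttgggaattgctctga
PCDHB14, chr5:141223243-141223342, plus strand: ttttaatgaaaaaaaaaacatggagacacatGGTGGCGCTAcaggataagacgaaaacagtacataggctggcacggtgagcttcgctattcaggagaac
PCDHB14, the beta gene with the largest fold in Differentiation, held the word with 1 substitution, G10A, counted from the 5′ end of the word. The match began 69 bases before the gene start in PCDHB14 and in PCDHB3, 76 in PCDHB9 and 43 in PCDHB10. With 1 mismatch allowed, the word was in 14 of 14 beta, 0 of 13 alpha and 2 of 20 gamma promoters and in 6.58% of all. PCDHB2, which was not higher in Differentiation, held the exact word. Whether the word or its substitution bears on the folds of these genes was not tested.

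Genes around the clusters and in their pathway were described from lists. The neighbours on chromosome 5 outside the clusters had 18 of 21 members measured in Differentiation against Nondifferentiation, with 1 higher, 0 lower and a median log2 fold of 0.17, where 10.4% of all measured genes were higher and 10.9% were lower. The higher one was FCHSD1, at a log2 level of 8.57 in Differentiation, against 7.53 in Nondifferentiation. KIAA0141 followed with a log2 fold of 0.77, and the lowest were NDUFA2, a subunit of respiratory complex I, at -0.47 and the actin nucleator DIAPH1 at -0.46. TAF7, a subunit of the general transcription factor TFIID whose gene lies between the beta and gamma clusters, had a log2 fold of 0.33.

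The non-clustered protocadherins, which are encoded as single genes outside the clusters, had 4 of 12 members measured in Differentiation, 4 higher and 0 lower. Over all measured genes 10.4% were higher and 10.9% were lower. All 4 of these protocadherins passed the floor through Differentiation alone, so the count is no more than a description. PCDH7 had a log2 level of 8.43 in Differentiation, against 4.09 in Nondifferentiation. PCDH17 had 8.90 against 4.87, PCDH9 had 8.51 against 6.36 and PCDH18 had 9.14 against 7.57, in the same order of libraries. PCDH10, below the floor, went the other way, at 3.81 in Differentiation and 6.34 in Nondifferentiation.

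Factors known to shape promoter choice in the clusters were set beside the shares over all measured genes, 10.4% higher and 10.9% lower. Of 15 genes for CTCF, cohesin and their regulators 13 were measured in Differentiation, with 1 higher, 0 lower and a median log2 fold of -0.29. Below the floor ESCO2, from the same list, had a log2 level of 5.10 in Differentiation, against 7.50 in Nondifferentiation. Its log2 fold was -2.41 (-2.87 to -1.96). CTCF, which bridges promoter and enhancer in the clusters, had a log2 level of 10.63 in Differentiation, against 11.03 in Nondifferentiation. MAU2, a cohesin loader subunit, had a log2 fold of 1.01, its partner NIPBL had 0.56, and the zinc finger factors MAZ and ZNF143 had -0.89 and -0.78. Of 12 genes for DNA methylation and silencing of the clusters 12 were measured, with 1 higher, 2 lower and a median of 0.03. The lower ones were the DNA methyltransferases DNMT3B, at a log2 level of 7.50 in Differentiation against 9.54 in Nondifferentiation, and DNMT1, at 11.35 against 12.42. The higher one was ATF7IP, a partner of the histone methyltransferase SETDB1, with a log2 fold of 1.64, followed by the methyl-DNA binding protein MBD1 with 0.81.

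Among the proteins that act with or on protocadherins, the proteases that cleave them had 7 of 8 members measured, 2 higher and 0 lower. Over all measured genes in Differentiation 10.4% were higher and 10.9% were lower, with a median log2 fold of 0.02. The higher of the 2 proteases was NCSTN, a subunit of gamma-secretase, with a log2 fold of 1.56. The lowest of the list were PSENEN, also a subunit of that enzyme, with 0.11, and the sheddase ADAM10, with 0.43. The cytoplasmic partners had 14 of 15 members measured and the classical cadherins and catenins 7 of 19, with 0 higher and 0 lower in either list and medians of 0.06 for the partners and 0.55 for the cadherins and catenins. Among the measured partners the log2 folds ran between -0.78 for MARCKS, an actin-linked membrane protein, and 0.42 for CYFIP2, a subunit of the WAVE complex. PDCD10 had -0.32 and ABI2, another WAVE subunit, had 0.20. PTK2B, a kinase below the floor, had 1.09 (0.57 to 1.63). Among the measured cadherins and catenins the lowest were CDH11 at 0.06 and the alpha-catenin CTNNA1 at 0.16, and the highest were JUP, or plakoglobin, at 0.90 and the alpha-catenin CTNNA2 at 0.88. In both knockdown comparisons each of the 7 lists described here had 0 measured members higher and 0 lower, where over all measured genes 0.0946% were higher and 0.106% lower in siSTAU1 and 0.401% and 0.142% in siUPF1. Of the 12 non-clustered protocadherins only 1 was measured there, PCDH18. Below the floor PCDH7 had a log2 level of 2.26 in siSTAU1, against 4.75 in siControl, a log2 fold of -2.49 (-4.50 to -0.91). PCDH20 had 5.77 in siUPF1, against 4.75 in siControl, a log2 fold of 1.02 (0.24 to 1.84). The other control library, Nondifferentiation, had PCDH20 at 5.54, and siControl against Nondifferentiation had a log2 fold of -0.79 (-1.63 to 0.01).

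**Figure D4:**
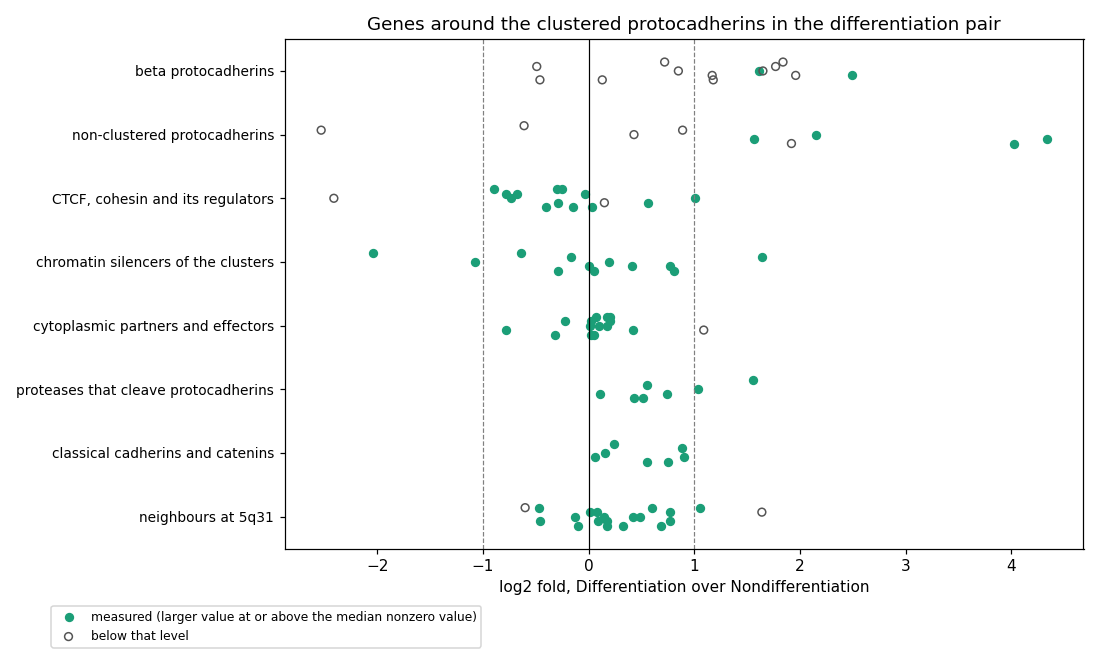
Log2 folds (horizontal axis) of single genes of the beta cluster and of each list in Differentiation against Nondifferentiation, filled where the gene was measured and open below the floor, with dashed lines at 2-fold. PCDHB9, PCDHB14 and the 4 measured non-clustered protocadherins lie to the right of 1, while most measured genes of the other lists lie between -1 and 1.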

How the data were processed

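RNA of 5 SH-SY5Y libraries was profiled by 3′ end sequencing (Lexogen QuantSeq) from 500 ng of total RNA, per the labels' protocols. Per the submitters' processing notes, Bowtie2, edgeR and hg19 were used, with no role or version. The sources used here do not name the counting tool, the annotation or the strand setting. The deposited log2 values, 1 per symbol and library, all peak at 18.01, and their linear forms are multiples of 1/5 within a tolerance of 0.001. This is the pattern of quantile normalization, an inference from the values, and it removes differences in total RNA. A value's rank among the distinct nonzero values was taken as its number of reads up to 300 reads, and beyond that a fixed worth per read was used. Even read numbers were commoner than odd ones (262 genes at 6 reads in siControl, against 210 at 5 and 139 at 7), so a read may be counted more than once and the intervals may be too narrow.

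Intervals of folds are 95% exact conditional intervals for 2 read numbers; no fold is given with 3 reads or fewer. Groups came from the sample titles. Named were members at a log2 level of 5 or more in any library, those next to the floor, the first alpha and gamma exons, C-type members, STAU1, UPF1 and the 2 highest and 2 lowest measured genes of each list in the differentiation pair. All alpha and gamma genes pass this rule, and those picked out from them, the low beta genes, PCDH10, PCDH20, PTK2B, TAF7 and CTCF were chosen after their values were seen. So were ESCO2 and the mesenchymal markers COL1A1, COL1A2, ACTA2 and CD44. Some genes that the rule picks are not reported here. The members and lists were chosen with earlier results of these data known. Alternatives were no floor, a floor of 5, a pseudocount of 16, a 1.5-fold threshold, libraries rescaled to the same total, each cluster without its largest member and the other control library. Transcripts were from GENCODE 29 and promoters from RefSeq (GRCh38.p14), another build than hg19. Calculations used scipy 1.17.1, pandas 2.3.3 and numpy 2.4.6 under Python 3.11.15, with figures from matplotlib 3.10.9, and were tested on simulated data.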

Additional observations from a re-analysis of the deposited data

How the results depend on the processing

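Of 81 values recomputed under other settings, 76 stayed within the counting interval, for folds, or within 1.5 times, for counts. Among them were 5 sign changes of small siSTAU1 folds: with Nondifferentiation as the control, alpha had -0.06 against 0.03, gamma 0.13 against -0.03 and beta -0.01 against 0.01, and beta had -0.05 without PCDHB9 and -0.13 without PCDHB9 and PCDHB14. With that control the gamma fold in siUPF1 was 0.21, against 0.05. With siControl in place of Nondifferentiation, 20 members were higher in Differentiation, against 39, because most gamma rows then lay just under 2-fold, with a shared level at 0.99. With alpha and gamma each counted as 1 measurement, the count was 4, and without PCDHB9 and PCDHB14 the summed beta log2 fold was 1.19, against 1.70; both were chosen after seeing the data. With no floor, 2 members were higher and 3 lower in siUPF1, all of them low beta genes, against 0 and 0. Some settings could hardly move a fold, so part of the 76 was fixed in advance. Rescaling to the same total changes little in libraries already scaled to a common distribution. The alpha and gamma folds without the largest member, or at the shared level, rest on the same shared reads. No paired analysis was possible because each group had 1 library. The spread between cultures is unknown, reads of the constant exons do not tell alpha and gamma members apart, and beta genes below a log2 level of 5 rest on few reads.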

Other observations

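The pseudogenes left out of the counts were mostly near 0, with 1 exception. PCDHB19P had a log2 level of 5.89 in Differentiation, against 2.38 in Nondifferentiation, and 4.25 in siSTAU1 and 3.26 in siUPF1, against 4.50 in siControl. Its log2 fold was 3.51 (2.23 to 5.17) in Differentiation, from an estimated 90 reads against 5. The control libraries themselves differed, with a log2 fold of 2.12 (0.61 to 3.92) in siControl against Nondifferentiation. PCDHGB8P was listed at 0 in all 5 libraries. PCDHB17P had a log2 level of 0.68 in Differentiation, against 1.77 in Nondifferentiation, and was listed at 0 in the other 3 libraries. PCDHB18P had 2.38 in Differentiation and 2.20 in siUPF1 and was listed at 0 in Nondifferentiation and siControl.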
